A study of Homo sapiens with 12 samples.

Results

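The HOXA cluster was examined through 10 of its genes on chromosome 7 (HOXA2, HOXA3, HOXA4, HOXA5, HOXA6, HOXA7, HOXA9, HOXA10, HOXA11 and HOXA13), out of 20037 protein-coding genes in the RefSeq table of GRCh38.p14. The members were taken by name, and the bases between them were included, so the span measured ran from 27100354 to 27200091 and held 99.7 kb. All libraries came from HepG2/C3A cells, a hepatocellular carcinoma line of epithelial type, grown in the same medium. Cells received 10 mM sodium succinate or, in the control group, no succinate (a vehicle control, per the series' design text), and both were kept for 48 hours. CUT&Tag, in which an antibody brings a transposase to chromatin so that DNA nearby is cut and tagged for sequencing, was done with an antibody to histone H3 trimethylated at lysine 27 (H3K27me3) and with an antibody to succinylated lysine on any protein (pan-Ksu, called Ksu here). For either antibody there were 2 control and 2 succinate libraries, called biological replicates in the labels, and the 4 IgG samples were not analysed here.

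HOX genes encode homeodomain transcription factors that give cells their position along the body axis, and in each cluster the genes lie in the order in which they act from head to tail. Genes at the HOXA2 end act anteriorly and genes at the HOXA13 end act posteriorly. Outside the cells where they are used, HOX genes are classic targets of Polycomb repressive complex 2, the enzyme that writes H3K27me3, and a cluster can be split into a part with the mark and a part without it.

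The deposited data were lists of peaks, each made from a single library. The H3K27me3 lists held from 5531 to 19133 peaks on the 24 chromosomes and covered 3.79% to 6.45% of them, and the Ksu lists held from 76702 to 629903 peaks and covered 2.60% to 10.7%. Read depth is unknown from such lists. The lowest total signal of a listed peak, called the floor of a library, was counted in steps, where a step is the smallest unit of which all highest signals of that library were whole multiples. It ranged from 51892 to 330250 steps for H3K27me3 and from 49.0 to 8977 for Ksu. Expression was not measured, so markers of the cell type could be read only through H3K27me3: none of 12 genes for liver proteins, among them ALB (albumin) and APOB (apolipoprotein B), had a base under an H3K27me3 peak in any library, as held for 75.0% of all protein-coding genes.

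The H3K27me3 peaks divided the cluster between HOXA6 and HOXA7, and the bases before the starts of these neighbours are shown because the edge fell between them. They are the 250 bases upstream of each start, on the minus strand from which all 9 members with an entry in the RefSeq table are read, 5′ to 3′, with each C followed by G in capitals. The third belongs to HOXA13, which lay at the far end of the span and whose body held most of a stretch without peaks. That stretch lay toward the other end of the gene from the bases shown. HOXA6 (GRCh38.p14, chr7:27147775-27148024) had no H3K27me3 in any library, while HOXA7 (chr7:27156676-27156925) and HOXA13 (chr7:27200092-27200341) were covered in full in all 4.
HOXA6: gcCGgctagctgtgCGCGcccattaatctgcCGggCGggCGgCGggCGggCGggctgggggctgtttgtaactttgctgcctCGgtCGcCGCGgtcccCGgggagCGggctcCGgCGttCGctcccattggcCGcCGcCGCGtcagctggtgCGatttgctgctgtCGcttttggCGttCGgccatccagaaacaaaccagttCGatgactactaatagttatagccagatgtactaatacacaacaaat
HOXA7: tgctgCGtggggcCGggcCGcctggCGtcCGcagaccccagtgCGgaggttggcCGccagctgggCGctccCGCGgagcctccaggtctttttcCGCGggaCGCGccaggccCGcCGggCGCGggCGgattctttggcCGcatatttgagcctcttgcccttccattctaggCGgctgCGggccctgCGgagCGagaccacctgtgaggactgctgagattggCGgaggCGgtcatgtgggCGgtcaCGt
HOXA13: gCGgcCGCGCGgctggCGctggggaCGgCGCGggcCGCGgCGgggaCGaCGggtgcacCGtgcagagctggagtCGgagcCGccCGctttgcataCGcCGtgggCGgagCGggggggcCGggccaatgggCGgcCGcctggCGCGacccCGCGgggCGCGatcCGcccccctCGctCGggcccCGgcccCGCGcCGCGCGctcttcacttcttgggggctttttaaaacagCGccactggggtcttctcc

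HOXA6 and HOXA7, on opposite sides of the edge, had similar numbers of these CG pairs. HOXA6 had 27 in 250 bases and HOXA7 had 28, beside a median of 11 over all 35116 windows of that length in the table. HOXA13 had 40, a number reached by 2.16% of the windows. The other windows without H3K27me3 had 8 at HOXA2, 26 at HOXA4 and 7, 13, 0, 4 and 19 at inner starts of HOXA3. The other covered windows had 11 and 26 at the upstream starts of HOXA3, 20 at HOXA9, 19 and 24 at HOXA10 and 11 at HOXA11. A difference between the sides was not tested. The GC box, GGGCGG on either strand, which itself holds a CG pair, was found in 8 of 16 member windows and in 42.6% of all windows, with 4 matches at HOXA6, 2 at HOXA7 and 4 at HOXA13. The composite PBX-HOX site, TGATTNAT on either strand, was found at HOXA2 alone among the members, and in 2.48% of all windows. These matches describe letters in the windows and say nothing of binding.

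**Figure D1:**
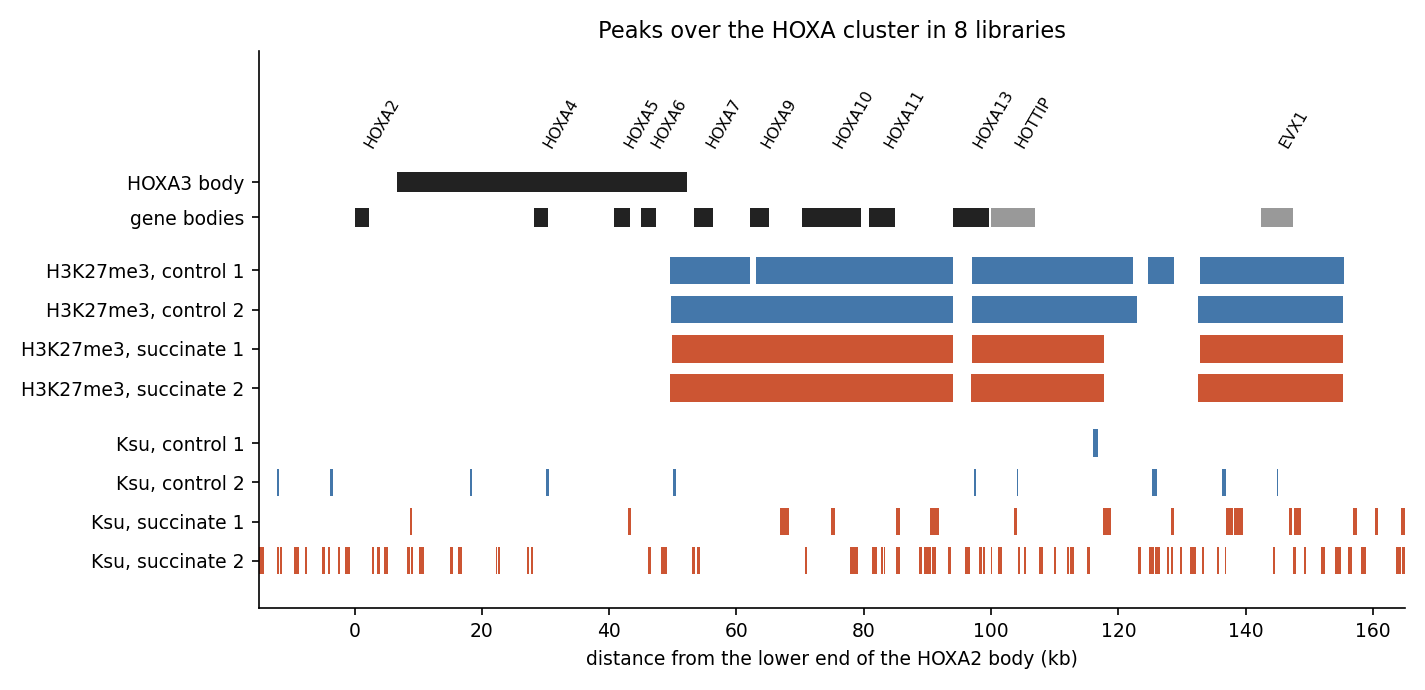
Peaks of 8 libraries over the HOXA cluster, by distance in kb from the lower end of the HOXA2 body, with member gene bodies in black, HOTTIP and EVX1 in grey, control libraries in blue and succinate libraries in red. H3K27me3 peaks begin 49.6 to 49.8 kb into the cluster in all 4 libraries and leave a hole of 2790 to 3036 bp at HOXA13, and Ksu peaks are short and most numerous in succinate replicate 2.

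Of the anterior genes, HOXA2, HOXA4, HOXA5 and HOXA6 were free of H3K27me3 peaks. HOXA2 (27100354 to 27102683), which patterns the hindbrain and the second pharyngeal arch, had 0% of its body under H3K27me3 peaks in each of the 4 libraries. HOXA4 (27128525 to 27130757), HOXA5 (27141052 to 27143681), needed for lung development, and HOXA6 (27145396 to 27147774) likewise had 0% in every library. The 47.4 kb from HOXA2 to the end of HOXA6 held no base under an H3K27me3 peak in any of them. Over all protein-coding genes, 75.0% of bodies were untouched in every library, so 4 untouched members of 10 were fewer than that background share.

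HOXA3 (27107010 to 27152583), which patterns the pharyngeal organs, has a body of 45.6 kb that runs across HOXA4, HOXA5 and HOXA6, and only its upstream end was covered. H3K27me3 peaks took 2605 and 2464 bp of it in control and 2400 and 2662 bp under succinate, which was 5.72%, 5.41%, 5.27% and 5.84% of the body. The treatments overlapped. The table gives HOXA3 7 start windows of 300 bases, 250 before and 50 after a start. The pair farthest upstream, with starts at 27152583 and 27150950, was fully covered in all 4 libraries, and the other 5 windows were covered in none.

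The posterior genes lay under H3K27me3. HOXA7 (27153716 to 27156675), HOXA10 (27170605 to 27179861), known for its part in the uterus, and HOXA11 (27181157 to 27185232), which shapes the forearm and lower leg, were covered over 100% of their bodies in all 4 libraries. HOXA9 (27162438 to 27165537), which acts in blood stem cells and is overexpressed in some leukaemias, was covered over 100% in 3 libraries and over 68.9% in control replicate 1. There a gap of 973 bp between peaks took 964 bp of the gene. HOXA13 (27194364 to 27200091), which forms the hand, foot and urogenital tract, was covered in part, with 47.4% and 48.3% in control and 48.3% and 51.6% under succinate. In all, 4 of 10 members had at least 50% of the body covered in every library, where 6.65% of all protein-coding genes did. At least 1 covered base in every library was found for 6 of 10 members, where 12.3% of all genes had this. By start windows, 8 of the 16 windows of members were fully covered in all 4 libraries and 8 in none, while 8.0% of all windows in the table were fully covered.

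**Figure D2:**
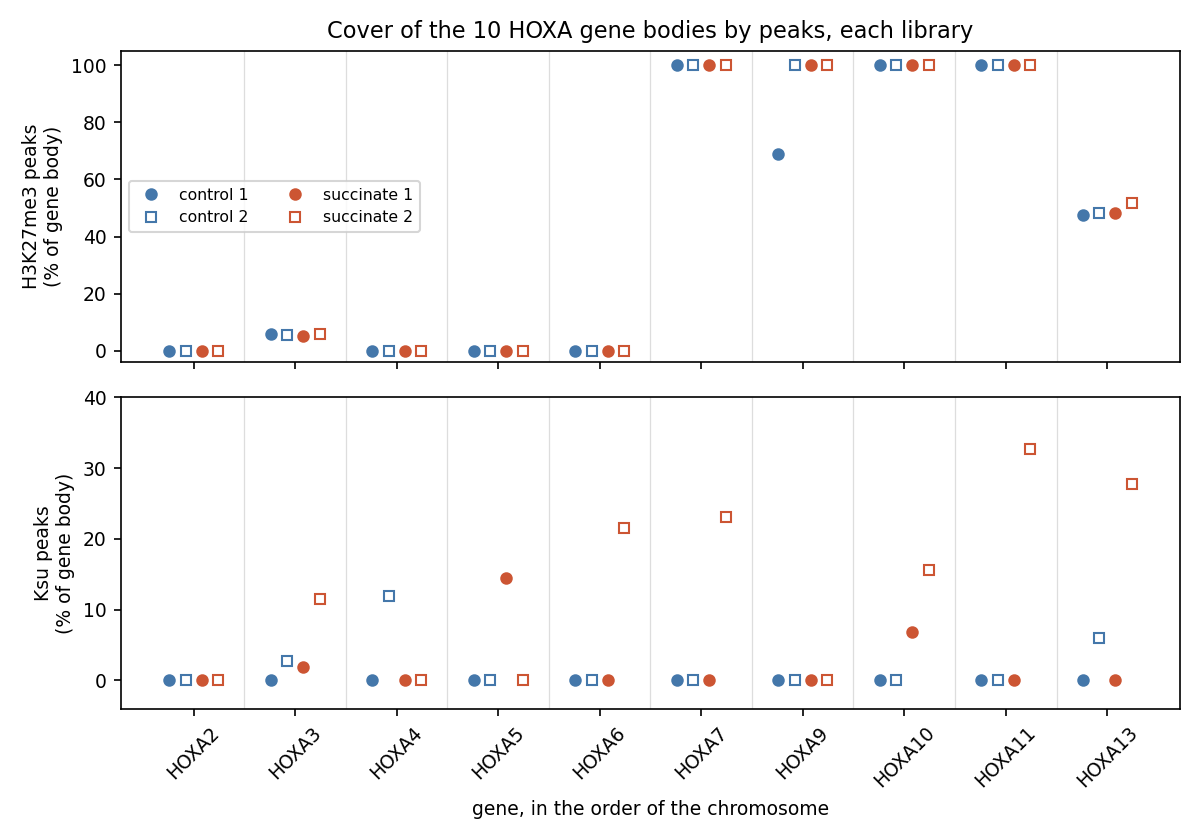
Share of each HOXA gene body under peaks (percent), with a point for each library, for H3K27me3 above and Ksu below, control in blue and succinate in red, replicate 1 as filled circles and replicate 2 as open squares. H3K27me3 is at 0% to 5.84% from HOXA2 to HOXA6 and at 47.4% to 100% from HOXA7 to HOXA13, and the highest Ksu values are 32.7% and 27.7%, both in succinate replicate 2.

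The edge between the uncovered and the covered genes lay at nearly the same base in every library. The first covered base was 27149979 and 27150120 in control and 27150184 and 27149922 under succinate, a range of 262 bp. This was 2148 to 2410 bp past the highest base of the HOXA6 body and 3532 to 3794 bp before the lowest base of the HOXA7 body. The values of the treatments interleaved, and their means differed by -3.5 bp against a pooled SD of 149 bp (exact two-sided permutation test, p = 1, n = 2 libraries per group). With 2 libraries a group, the smallest p this test can give is 0.333. Over the 4169 H3K27me3 regions present in all 4 libraries, the first edge varied by a median of 3130 bp, and 10.2% of regions had an edge that varied by 262 bp or less.

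A further edge lay at the end of the HOXA13 body. The peak over HOXA10 and HOXA11 ended at 27194339 and 27194346 in control and at 27194310 and 27194346 under succinate, 18 to 54 bp short of the lowest base of HOXA13, where its transcript ends. The range of 36 bp was matched or undercut by 1.92% of the last edges of the 4169 regions. Past this edge no H3K27me3 peak was listed for 3036 and 2981 bp in control and 3015 and 2790 bp under succinate. Cover began again inside HOXA13 and took in the 2716 to 2955 bp nearest its start. Ksu succinate replicate 2 had a peak from 27196203 to 27197034 within this hole.

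The place of highest signal within the long peak was shared as well. It lay at 27189908 and 27189905 in control and at 27189908 and 27189905 under succinate, all within 5 bp of each other. That place is 612 to 615 bp past HOXA11-AS, a long non-coding RNA gene read away from HOXA11, and 4.46 kb before HOXA13. The highest signal there was 299 and 376 steps in control and 373 and 420 under succinate. Steps differ in size between libraries and depth is unknown, so these heights were not compared between treatments.

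The H3K27me3 cover of the cluster differed between treatments by little more than the SD of the replicates. Peaks covered 46.2% and 47.1% of the span in control (46.7% ± 0.629, SD, n = 2) and 47.0% and 47.5% in succinate (47.3% ± 0.345, SD, n = 2). The difference was 0.591 percentage points against a pooled SD of 0.507 (exact two-sided permutation test, p = 0.667), and it was 0.103 points when peaks within 1 kb were merged and 0.146 without control replicate 1. It was 1.04 points without control replicate 2. The mean over the 10 bodies was 42.2% and 45.4% in control and 45.4% and 45.7% under succinate, a difference of 1.76 points with a pooled SD of 1.59 points (p = 0.667, same exact test). It came to 0.183 points without control replicate 1, the library with the gap in HOXA9, and to 3.35 points without control replicate 2.

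Among single members, only HOXA13 had H3K27me3 covers that did not overlap between treatments. Its nearest values were 2764 bp in control replicate 2 and 2766 bp in succinate replicate 1, so the separation was within 2 bp, which could not pass a test with 2 libraries a group (exact permutation p = 0.333). No overlap with succinate higher was found for 1 of 10 members and for 3.71% of all protein-coding genes. None of the 10 had both succinate values lower, which held for 1.13% of all genes.

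The bases of the span were shared almost fully. Of its 99.7 kb, 45.9 kb were under H3K27me3 peaks in all 4 libraries, 52.4 kb in none, and the remainder in some. The Jaccard index, the bases in both of a pair of libraries divided by the bases in either, was 0.973 to 0.998 over the 6 pairs inside the span. Over the chromosomes the same pairs gave 0.508 to 0.659. The lowest values in the span were those of control replicate 1, again the library with the gap in HOXA9.

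The edge beyond HOXA13 had values that did not overlap between treatments. The peak that began inside HOXA13 reached 22.6 and 23.3 kb past the body in control and 18.0 kb in both succinate libraries. The control values were both above the succinate values, and succinate minus control was -4949 bp with a pooled SD of 320 bp (exact permutation p = 0.333, the smallest possible). The difference ranged from -5268 to -4630 bp when each library was left out in turn. It stayed at -4949 bp with the 50% of peaks highest in total signal, with equal numbers of peaks, at a common floor and after merging. These settings could not have moved it. Filters keep or drop whole peaks and kept this one in every library, and the next peak, at its nearest 2.28 kb away, was beyond the 1 kb of merging. The stretch covered in both control libraries and in neither succinate library ran from 27218103 to 27222710 (4608 bp), between HOTTIP and EVX1-AS, and overlapped no gene of the table. A last edge that was lower in both succinate libraries than in both control libraries was found in 8.18% of the 4169 regions, and by this distance or more in 1.94%. The opposite order was found in 28.0% of regions, and by this distance or more in 5.28%, so the edge at HOXA13 ran against the more frequent direction.

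The place of highest signal in that peak also did not overlap between treatments, but in the opposite direction, farther from HOXA13 under succinate. It lay at 27200905 and 27200932 in control, 484 and 511 bp into HOTTIP, the long non-coding RNA gene next to HOXA13 that is known to act on the posterior HOXA genes. In succinate it lay at 27208494 and 27208533, which is 1235 and 1274 bp past the end of HOTTIP. The share of all H3K27me3 regions with such a difference was not counted. The lists give only the highest place of each peak, so the signal of succinate at the control place, and the reverse, is unknown, and the difference was not tested.

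**Figure D3:**
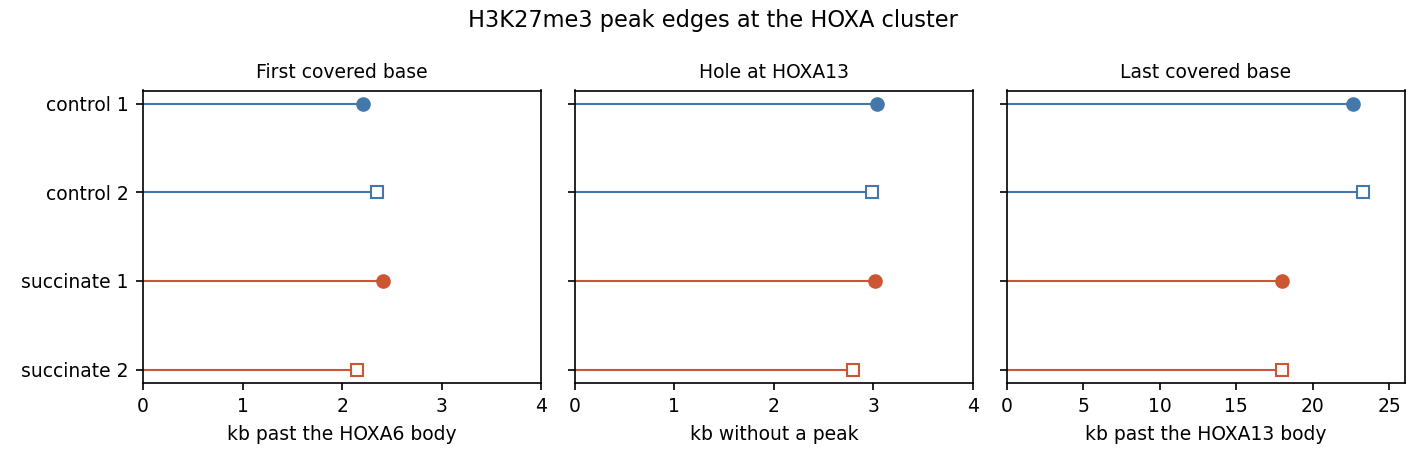
H3K27me3 peak edges in each library, with the first covered base in kb past the HOXA6 body (left), the length of the hole at HOXA13 in kb (middle) and the last covered base of the peak that begins in HOXA13, in kb past its body (right). Lines run from 0 to the value of each library, control in blue and succinate in red. The left and middle values interleave or lie close together, and the right values are 22.6 and 23.3 kb in control against 18.0 kb in both succinate libraries.

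The neighbours of the cluster differed by side. Toward HOXA2, the nearest H3K27me3 peak outside the span was 468 kb away in each library, and SKAP2, an adaptor protein gene 236 kb off, was at 0%. Toward HOXA13, EVX1, a homeobox gene 42.7 kb past the span, was at 100% in all 4 libraries, in a separate peak. The next peak began 2.28 and 9.53 kb after the last peak of the span in control and 15.0 and 14.8 kb after it under succinate, and the last peak of that side ended 55.6 or 55.7 kb past the span. HIBADH, an enzyme gene of valine breakdown 325 kb past the span, was at 0%. Among non-coding genes, HOTTIP, HOXA11-AS and HOXA10-AS were at 100% in every library and HOXA-AS2, which overlaps the end of HOXA4, was at 0%. HOXA-AS3, which runs from HOXA5 to HOXA7 across the edge, was covered over 38.2% and 37.3% in control and 36.9% and 38.6% under succinate.

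The miRNA gene MIR196B lies between HOXA9 and HOXA10 and was under H3K27me3 peaks over 100% of its hairpin in all 4 libraries. Its mature product is shown because miR-196 is known to bind transcripts of HOX genes, and its seed (bases 2 to 8) is in capitals (RefSeq GRCh38.p14, chr7:27169528-27169549). It was chosen after its values were seen.
hsa-miR-196b-5p: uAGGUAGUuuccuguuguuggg

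The other HOX clusters were covered more fully, measured as bases pooled over gene bodies. A base in overlapping bodies was counted for each of them, as where the HOXA3 body holds those of HOXA4, HOXA5 and HOXA6. HOXA stood at 29.6% and 30.7% in control and 30.6% and 31.2% under succinate. HOXB was at 99.8% to 100%, HOXC at 91.4% to 100% and HOXD at 78.8% to 83.3%. HOXA minus the mean of the other clusters was -64.8 to -59.4 points over the libraries and -61.8 on average (exact two-sided sign-flip permutation test over 4 libraries, p = 0.125, the smallest possible). HOXA3 made up 56.8% of the member bases, and without its body HOXA stood at 60.9% to 64.4% and the mean difference was -29.0 points (p = 0.125, same exact test), a choice made after the values were seen. By genes, 10 of 10 in HOXB, 9 of 9 in HOXC and 8 of 9 in HOXD were touched in all 4 libraries, against 6 of 10 in HOXA.

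**Figure D4:**
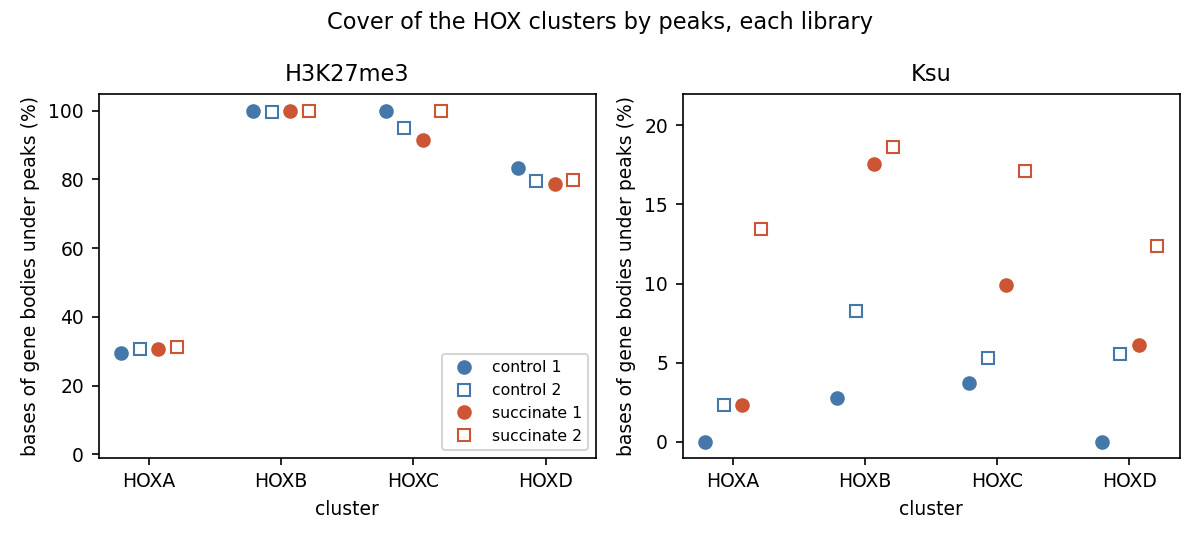
Bases of the gene bodies of each HOX cluster under peaks (percent), with a point for each library, control in blue and succinate in red, for H3K27me3 (left) and Ksu (right). For H3K27me3, HOXA lies at 29.6% to 31.2% in all 4 libraries, below every value of HOXB, HOXC and HOXD, and the Ksu values of the clusters overlap.

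Ksu peaks in the cluster differed in number from library to library. Control replicate 1 had 0 peaks in the span, control replicate 2 had 4, succinate replicate 1 had 6 and succinate replicate 2 had 31. Per 100 kb this was 0, 4.01, 6.02 and 31.1 peaks, beside 2.48, 12.4, 9.54 and 20.4 over the chromosomes, so the span was below its library in 3 cases and above it in succinate replicate 2. The median width was 389, 608 and 434 bp in the last 3 libraries, beside 444, 582 and 469 bp over all peaks of each. In the middle of each set, 55.2%, 59.3% and 78.0% of the peaks of the same library had a higher total signal. Control replicate 1 listed only peaks of at least 8977 steps in total signal, and in the other libraries 1 Ksu peak of the span reached that number of steps, in succinate replicate 1, though a step may differ in size between libraries. A count of 0 in control replicate 1 thus says nothing of weaker peaks.

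No member was touched by Ksu in every library, where 31.7% of all protein-coding genes were. Members touched numbered 0 and 3 in control and 3 and 6 under succinate, where 34.8%, 71.1%, 72.2% and 84.4% of all genes were touched. Members are short for this measure, with a median body of 3.03 kb against 24.1 kb for all protein-coding genes. HOXA10 was the only member without overlap between treatments, at 0% and 0% in control and 6.84% and 15.6% under succinate (exact permutation p = 0.333). Among all genes 46.6% had both succinate values higher, so 1 of 10 is below that background, and none of the 10 had both lower, where 0.484% of all genes did.

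The other members varied from library to library. HOXA11 was covered over 32.7%, HOXA7 over 23.1% and HOXA6 over 21.5% in succinate replicate 2, and each was at 0% in the other 3 libraries. HOXA13 had 0% and 6.01% in control and 0% and 27.7% under succinate, and HOXA3 had 0% and 2.81% against 1.88% and 11.5%. HOXA5 was covered only in succinate replicate 1 (14.4%) and HOXA4 only in control replicate 2 (11.9%). HOXA2 and HOXA9 were at 0% in all 4 libraries. Apart from HOXA10, then, no member was covered in both succinate libraries and in neither control library.

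Over the whole span, Ksu cover was 0% and 1.63% in control (0.814% ± 1.15, SD, n = 2) and 4.88% and 15.1% in succinate (9.99% ± 7.22, SD, n = 2). The groups did not overlap, and the difference was 9.17 points against a pooled SD of 5.17 (exact two-sided permutation test, p = 0.333). Without succinate replicate 2 it was 4.07 points, and without succinate replicate 1 it was 14.3. The libraries also differed over the chromosomes, where Ksu peaks covered 2.60% and 6.0% in control and 6.10% and 10.7% under succinate. Relative to the chromosomes, the span had 0.271 times the cover in control replicate 2, 0.801 times in succinate replicate 1 and 1.42 times in succinate replicate 2, and control replicate 1 was at 0. Against chromosome 7 alone, succinate replicate 1 was at 1.00 times, control replicate 2 at 0.270 and succinate replicate 2 at 1.42. On the log2 scale, relative to all chromosomes, the mean of the succinate values was above control replicate 2 by 1.97, and by 3.27 with the 50% of peaks highest in total signal. With control replicate 1 dropped for its 0, this compares against a single control library and is given without a test.

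The size of the difference depended on which peaks were kept. With the 50% of peaks highest in total signal in each library, the span was at 0% and 0.345% in control and at 3.44% and 5.64% under succinate, a difference of 4.37 points. With 76702 peaks taken from every library, the span was at 0% in both control libraries and at 2.81% and 1.15% in succinate, a difference of 1.98 points, and no member body held a Ksu base. At a common floor, which sets steps of different libraries equal, the difference was 0.710 points and 1 peak was left, in succinate replicate 1 between the bodies of HOXA9 and HOXA10.

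**Figure D5:**
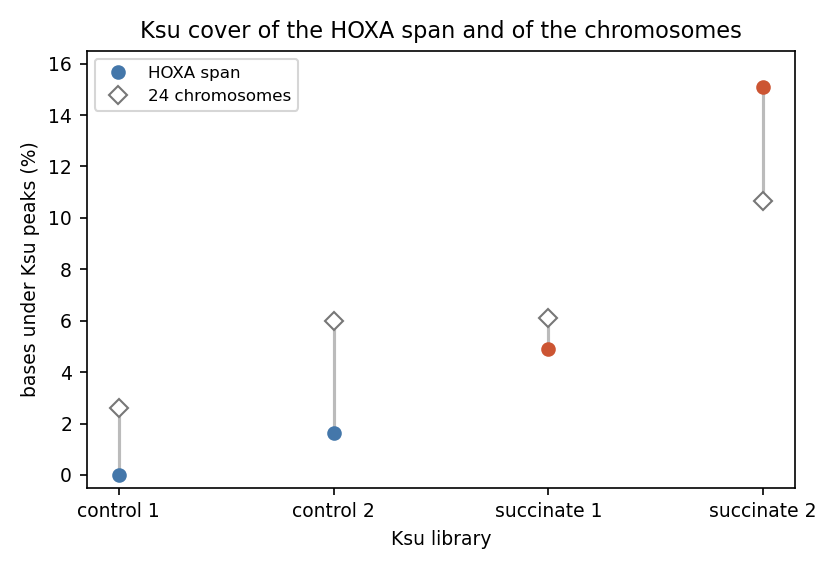
Share of bases under Ksu peaks (percent) in the HOXA span (filled circles, control in blue and succinate in red) and over the 24 chromosomes (open diamonds), for each Ksu library. The span lies below the chromosomes in 3 libraries and above them in succinate replicate 2, at 15.1% against 10.7%.

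Few Ksu bases recurred. In the span, 18.4 kb were under a Ksu peak in a single library, 1594 bp in 2 libraries and none in 3 or 4. All 1594 bp were shared by the succinate libraries, in 4 stretches. They lay in HOXA3 (27109149 to 27109413), in HOXA11-AS (27185489 to 27186031), and between HOXA11-AS and HOXA13 (27190734 to 27190989 and 27191131 to 27191660). The last 3 were under H3K27me3 in all 4 libraries of that antibody. The Jaccard index of the succinate pair was 0.0870 in the span and 0.0636 over the chromosomes, and the other 5 pairs were at 0 in the span.

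Ksu and H3K27me3 were set side by side within the cluster. Where all 4 H3K27me3 libraries had peaks, Ksu covered 0% and 1.84% of the bases in control and 8.76% and 16.8% under succinate. Where none had a peak, it covered 0% and 1.48% in control and 1.63% and 14.0% under succinate. Ksu was thus present on both sides of the edge, and the gap between them was widest in succinate replicate 1, which had 4 of its 6 peaks from HOXA7 to HOXA13. No test was made, since this split was chosen after the values were seen. Across the span H3K27me3 covered 41.6 points more than Ksu, with every H3K27me3 library above every Ksu library (exact two-sided permutation test within treatments, 36 arrangements, p = 0.0556, the smallest possible).

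Ksu cover of the HOXA bodies was below the mean of the other HOX clusters in each library. HOXA was at 0%, 2.35%, 2.33% and 13.5% in the order control 1 and 2, succinate 1 and 2. HOXB was at 2.75%, 8.27%, 17.6% and 18.6%. HOXA minus that mean was -8.88 to -2.16 points and -4.41 on average (exact sign-flip permutation test, p = 0.125, the smallest possible with 4 libraries). The mean was -2.92 points without succinate replicate 1, -2.63 at equal numbers of peaks and -1.96 at a common floor. HOXD was also at 0% in control replicate 1, and in succinate replicate 2 it was below HOXA, at 12.4%. Without the HOXA3 body, this difference in succinate replicate 2 was -0.0019 points.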

How the data were processed

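CUT&Tag was done on HepG2/C3A cells, and 8 peak lists, 1 per library, were used. Per the submitters' processing notes, peaks came from SEACR on hg38, and the lists' names give its stringent mode. SEACR joins adjacent covered bases into blocks and lists those with enough total signal. The authors' lists give, for each peak, coordinates, a total signal and a highest signal, whose scaling is not given in the sources used here, nor are the aligner, any control track and the threshold. In every library, 100% of highest signals were whole multiples of a step within 0.02.

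Peaks on 24 chromosomes (3087 Mb, each length being the highest peak or gene end found) were used. Cover is the percent of bases under peaks. A gene was touched at 1 bp or more. Gene bodies and start windows were RefSeq GRCh38.p14, and 9 of 10 members had a start window. Treatments were compared by exact permutation over 6 arrangements. Alternatives were the 50% of peaks highest in total signal, equal numbers of peaks, a common floor, merging within 1 kb, each replicate left out, and the replicate block. Covers were checked on simulated intervals. The named genes were the 10 members, the genes within 500 kb, other HOX clusters and 3 short lists (cofactor, Polycomb and liver genes), with the 5 genes most alike in cover. Members, lists and tests were chosen with earlier results of these data known. The labels call the libraries biological replicates and do not say how the cultures were separated, so p-values refer to these libraries only. Their smallest values are set by the number of arrangements. Work was done in Python 3.11.15 with numpy 2.4.6.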

Additional observations from a re-analysis of the deposited data

How the results depend on the processing

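Over 16 results, 146 alternative values were computed, of which 132 kept their direction (or, for counts, stayed within 1.5 times), 12 moved and 2 changed direction. The exact tests could not pass 0.05 in any setting, so this concerns values and not calls. The H3K27me3 covers of the span and of the members were the same with the 50% of peaks highest in total signal, at equal numbers and at a common floor. These settings keep or drop whole peaks and kept every H3K27me3 peak of the span, so they could not change these covers or edges. For Ksu, the difference in mean body cover (6.73 points with all peaks, 1.28 without succinate replicate 2 and 12.2 without succinate replicate 1) was 0 at equal numbers and 0 at a common floor, where no member body held a peak, and the count of members without overlap became 0 in both. The relative Ksu cover was not run at equal numbers or at a common floor, since both control libraries were then at 0.

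With each replicate left out, the difference at the HOXA2-side edge ranged from -134.5 to 127.5 bp. Members without overlap and higher in succinate ranged from 1 to 2 for H3K27me3 (2 without control replicate 2 or succinate replicate 1) and from 1 to 6 for Ksu (6 without succinate replicate 1, 2 without control replicate 2 or succinate replicate 2). Those lower ranged from 0 to 1 for both (1 without succinate replicate 2 for H3K27me3 and without control replicate 1 for Ksu). Members touched by Ksu in every library ranged from 0 to 1, and without control replicate 1 the count was 1 (HOXA3). The cause was not tested.

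The replicate block left each treatment difference equal (H3K27me3 span cover 0.591 points, Ksu span cover 9.17 points, edge past HOXA13 -4949 bp, exact permutation p = 0.5, the smallest possible), except the relative Ksu cover, at 2.39 from the only pair with 2 values. The labels do not say that replicate numbers pair libraries, and over gene bodies the deviations of same-numbered libraries correlated at 0.29 for H3K27me3 and 0.040 for Ksu.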

Other observations

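HOX proteins bind DNA with TALE homeodomain partners. Of 9 such partner genes, 5 were untouched by H3K27me3 peaks in all 4 libraries (PBX2, PBX3, MEIS1, MEIS2 and PKNOX1), beside 75.0% of all protein-coding genes, and 3 were touched in all 4, beside 12.3%. MEIS3 was at 100% in each library. PKNOX2 was at 85.7% and 69.0% in control and 85.3% and 75.2% under succinate. PBX4 was the only gene of the list with both succinate values lower, at 23% and 39.9% against 47.1% and 40.1%. Its values in the replicate 2 libraries, 39.9% and 40.1%, were nearly equal. This order was found in 1.13% of all protein-coding genes, a share that includes the 75.0% untouched in every library, which could not show it. The median of the list was 0% in every library, as it was over all protein-coding genes. Of 9 genes for Polycomb repressive complex 2 and the enzymes that remove its mark, EZH2 and KDM6A among them, none was touched in any library, which also held for that 75.0% of all genes.

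By the distance between their 8 covers and the mean of the HOXA members, the genes most alike were DLEC1, MAG, ARHGEF1, DLL4 and EXTL1, at 5.65 to 9.12 percentage points. This mean (42.2% to 45.7% for H3K27me3) averages members near 0% with members at 100%, so the likeness is to a number that few members have.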
